A study of Mus musculus with 14 samples.

Results

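Col6a1 and Col6a2 encode a pair of chains of type VI collagen, and their transcripts were described in mouse embryonic fibroblasts (MEFs) under 6 conditions. They are 2 of the 1399 transcripts listed in each of the 14 RNA-seq libraries. They were selected on their measured levels in the second experiment, which were lower after knockdown of Ctns and higher again with a CTNS plasmid. Their levels in knockdown and rescue are therefore given as a description, without a test. Ctns encodes cystinosin, the lysosomal cystine exporter. The 7 groups of 2 libraries all came from MEF cells labelled WT. Cysteamine libraries came from cells given cysteamine, which depletes lysosomal cystine. CTNS-KD libraries came from cells transfected with sh-CTNS, a short hairpin RNA against Ctns. CTNS-KD-rescue libraries came from cells that received the same hairpin together with a CTNS plasmid. NT2 libraries were untreated. In a first experiment, Cys libraries came from cells starved of cysteine, AA libraries from cells starved of all amino acids, and NT libraries from untreated cells. The labels do not say which untreated group belongs to which treatment. NT was set against the starvations and NT2 against the other groups, because the tables of each set share 1 style of column name. These sets are called the first and the second experiment here, a division that the labels do not state. No control hairpin or empty plasmid is named among the groups, so transfection and loss of Ctns cannot be told apart in CTNS-KD against NT2. Nor can CTNS and the addition of a plasmid be told apart in CTNS-KD-rescue against CTNS-KD. CTNS-KD-rescue against NT2 carries both limits. Nothing in the labels gives a dose, a duration or the number of cultures or clones, and the p-values measure the spread between libraries, which may be technical.

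Type VI collagen is a beaded filament of the matrix close to the cell surface. Its basic unit is a heterotrimer of the chains encoded by Col6a1, Col6a2 and a longer partner, most often Col6a3, and the units are joined by disulfide bonds into dimers and tetramers before secretion. Fibroblasts are a main source of it in connective tissue and muscle, and in humans mutations in any of these chains cause Bethlem myopathy and Ullrich congenital muscular dystrophy.

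The listed Col6a1 transcript, ENSMUST00000001147 of gene ENSMUSG00000001119, spans chr10:76708792-76726168 on the minus strand of GRCm38 in GENCODE M21, with 35 exons, 4100 bases in all and 3075 coding bases. The listed Col6a2 transcript, ENSMUST00000105413 of gene ENSMUSG00000020241, spans chr10:76597835-76623325 on the same strand, with 28 exons, 4653 bases in all and 2799 coding bases. They lie 85466 bases apart with 1 annotated gene between them, the long noncoding RNA Gm35608. Col6a3, ENSMUST00000097653 of ENSMUSG00000048126, lies at chr1:90766860-90843952 on the minus strand, with 41 exons, 9001 bases in all and 8031 coding bases. It was the other type VI chain among the listed transcripts; the genes for the remaining chains were not analysed here. The coding part of all 3 holds a collagen repeat, in which a glycine codon (GGN) begins each triplet of codons. The longest unbroken run has 87 repeats in Col6a1, 87 in Col6a2 and 45 in Col6a3. The first 10 repeats of each run are printed 5′ to 3′ with the glycine codons in capitals, because the shared repeat is where reads of related chains could be confused.
Col6a1: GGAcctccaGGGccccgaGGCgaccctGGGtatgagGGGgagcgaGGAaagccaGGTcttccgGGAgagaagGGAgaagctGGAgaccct
Col6a2: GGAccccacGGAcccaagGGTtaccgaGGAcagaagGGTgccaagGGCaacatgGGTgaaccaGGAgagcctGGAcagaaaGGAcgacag
Col6a3: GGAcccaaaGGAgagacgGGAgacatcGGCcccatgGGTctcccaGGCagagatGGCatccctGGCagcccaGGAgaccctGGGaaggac
These stretches are coding positions 766 to 855 of Col6a1, 811 to 900 of Col6a2 and 4672 to 4761 of Col6a3. The glycine codons recur in register while the bases between them differ, and the full transcripts shared 0 stretches of 25 bases with one another.

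Because the pair moved together, the 126 bases just before the most upstream annotated start of each gene were read from RefSeq (GRCm38.p6, minus strand, 5′ to 3′); they cover chr10:76726169-76726294 for Col6a1 and chr10:76623631-76623756 for Col6a2. For Col6a2 this window lies upstream of the start of the listed transcript.
Col6a1: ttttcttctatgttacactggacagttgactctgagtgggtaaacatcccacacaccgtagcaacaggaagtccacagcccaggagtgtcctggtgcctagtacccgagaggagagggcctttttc
Col6a2: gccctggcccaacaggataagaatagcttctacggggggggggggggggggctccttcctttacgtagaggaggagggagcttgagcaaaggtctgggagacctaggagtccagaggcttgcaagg
Both strands were searched for 7 motifs, and neither window held a match, so no base is in capitals. The motifs were AP-1 (TGANTCA, found in 3.62% of 32851 windows of the same length), the GC box (GGGCGG, 27.0%), the CCAAT box (CCAAT, 22.0%), the TATA box (TATAAA, 6.62%), an ATF4 element (TGATGNAA, 1.92%), an NRF2 element (TGACNNNGC, 5.94%) and an E-box (CACGTG, 3.80%). That says only that these letters are not in these windows.

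The listed counts of a library summed to between 25697 and 51224 for the starvation experiment and to between 64530 and 165747 for the second one, and the 3 most abundant transcripts took 3.29% to 54.5% of them. Since each table lists the same transcripts and no value is under 1, these sums are not sequencing depths. Ctns is not among the listed transcripts, so the knockdown itself was not analysed here. Of 14 fibroblast markers 8 were listed, Vim, Sparc, Fn1, S100a4, Postn and 3 collagens among them. Their share of the counts was 2.95% to 3.08% in Cysteamine, 2.30% to 2.36% in CTNS-KD-rescue, 1.49% to 1.51% in CTNS-KD and 5.31% to 5.67% in NT2. It was 2.88% to 3.68% in Cys, 0.750% to 1.27% in AA and 0.619% to 1.99% in NT. Of 25 markers of other cell types 3 were listed, Cdh1, Ttn and Ctrb1. Together they took 0.0413% to 0.0449% of the counts in Cysteamine, 0.126% to 0.147% in CTNS-KD-rescue, 0.108% to 0.112% in CTNS-KD and 0.0175% to 0.0361% in NT2. In the first experiment they took 0.0390% to 0.0426% in Cys, 0.127% to 0.136% in AA and 0.0778% to 0.0883% in NT. Among the second experiment's groups the fibroblast markers were lowest in the knockdown, where the means of Col6a1 and Col6a2 were lowest too. CTNS-KD-rescue had a lower fibroblast marker share than Cysteamine and higher means of both chains. The part of either marker list in the results was not tested. Fn1, Postn, Col1a1, Col1a2 and Col3a1 are among the listed fibroblast markers and also among the matrix genes reported below. The marker share is therefore no separate measure of fibroblast content. In these bulk samples fewer cells of a type and less RNA per cell cannot be told apart.

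Cysteamine was the treatment in the second experiment that the choice of the pair did not use, and both chains fell with it, Col6a1 to 474 ± 21.4 CPM and Col6a2 to 197 ± 52.8 CPM (SD, n = 2), against 1075 ± 109 and 514 ± 56.5 CPM in NT2. CPM are read counts rescaled with edgeR's TMM method (trimmed mean of M-values), so that libraries of unequal totals can be compared. Col6a1, the chain with the higher level of the pair, had 459 and 489 CPM in Cysteamine, from 86 and 110 counts, against 998 and 1152 CPM in NT2, from 252 and 238 counts. Both treated libraries were below both untreated ones. The log2 fold change was −1.17 ± 0.20 (SE; 95% interval −1.59 to −0.76), a level 2.26-fold lower, with an adjusted p of 0.00200 in edgeR's quasi-likelihood test. Col6a2, whose protein pairs with the Col6a1 chain in every type VI trimer, had 235 and 160 CPM in Cysteamine, from 44 and 36 counts, against 554 and 474 CPM in NT2, from 140 and 98 counts. These groups did not overlap either. Its log2 fold change was −1.40 ± 0.21 (95% interval −1.84 to −0.96), 2.63-fold lower, with an adjusted p of 0.000705 in the same test. In this comparison 5% of all 1399 transcripts were called lower and 26.2% had both treated libraries below both untreated ones, beside which both chains of the pair met both criteria. NT2 is also the group that the choice of the pair rested on, so the contrasts share these libraries. Choosing chains that were lower in CTNS-KD than in NT2 favours high NT2 values, and with them a fall with cysteamine. The cysteamine tests are therefore not independent of that choice.

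Leaving out single libraries ended the Col6a1 call more often than not. Without Cysteamine replicate 1, Cysteamine replicate 2 or NT2 replicate 2 the adjusted p of Col6a1 was 0.0705, 0.0642 and 0.0547, and without NT2 replicate 1 it was 0.0316; Col6a2 passed all 4 times, with 0.0498 as the highest. With limma neither chain passed (adjusted p = 0.304 for Col6a1 and 0.306 for Col6a2), and with NT as the control the log2 fold changes shrank to −0.21 (adjusted p = 0.727) and −0.28 (adjusted p = 0.741).

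**Figure D1:**
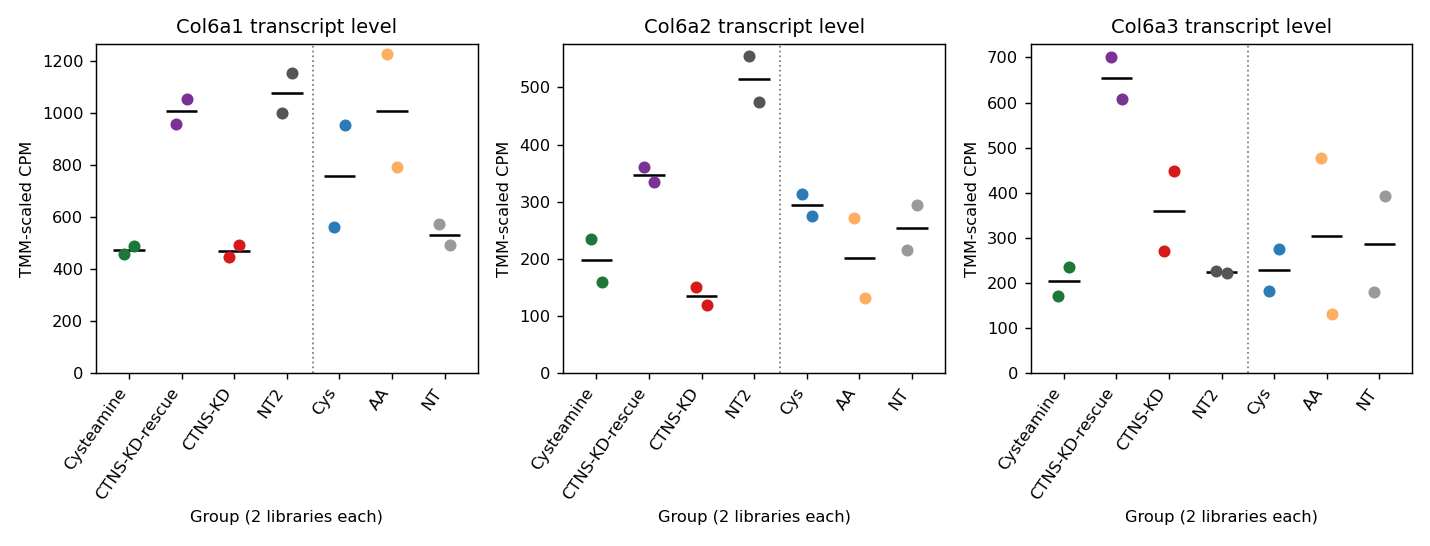
TMM-scaled CPM of Col6a1, Col6a2 and Col6a3 in each library (points, 2 per group) with the group mean (horizontal line); the dotted line separates the second experiment on the left from the first. Col6a1 and Col6a2 are lower in Cysteamine and CTNS-KD than in NT2, while Col6a3 is highest in CTNS-KD-rescue.

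In the knockdown both chains were at low levels against NT2, and in the rescue Col6a1 was near the NT2 level while Col6a2 was below it. Col6a1 had 957 and 1053 CPM in CTNS-KD-rescue, 444 and 493 CPM in CTNS-KD, against 998 and 1152 CPM in NT2. The rescue libraries overlapped the NT2 range, and the knockdown libraries lay below every rescue and NT2 library. Col6a2 had 360.2 and 334 CPM in CTNS-KD-rescue, 151 and 119 CPM in CTNS-KD, against 554 and 474 CPM in NT2. For this chain the 3 groups stood apart in that order, with rescue between knockdown and untreated. The log2 fold change of CTNS-KD against NT2 was −1.20 ± 0.21 (SE) for Col6a1 and −1.91 ± 0.25 for Col6a2, that is 2.29-fold and 3.77-fold lower. That of CTNS-KD-rescue against CTNS-KD was 1.10 ± 0.23 and 1.35 ± 0.29, or 2.14-fold and 2.55-fold higher. That of CTNS-KD-rescue against NT2 was −0.10 ± 0.20 for Col6a1 and −0.56 ± 0.22 for Col6a2. These values chose the pair. Beside them, 13.2% of all transcripts were called lower in CTNS-KD against NT2 and 31.6% had both libraries below both; 0.643% were called higher in CTNS-KD-rescue against CTNS-KD and 24.2% had both libraries above both. The comparisons of Cysteamine and of CTNS-KD share the NT2 libraries. With NT as the control instead, the CTNS-KD values shrank to −0.23 for Col6a1 and −0.80 for Col6a2, and the rescue values were 0.87 and 0.55, above 0 for both chains.

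Col6a3, which supplies the long chain of the trimer and was not part of the choice, was highest in the rescue. It had 171 and 236 CPM in Cysteamine, 701 and 607 CPM in CTNS-KD-rescue, 271 and 448 CPM in CTNS-KD, against 226 and 223 CPM in NT2. Both rescue libraries were above every other library, and the Cysteamine libraries lay on either side of NT2. Its log2 fold change was −0.13 ± 0.28 (SE; 95% interval −0.73 to 0.47; adjusted p = 0.797) for Cysteamine against NT2. For CTNS-KD against NT2 it was 0.65 ± 0.29 (adjusted p = 0.0924); without CTNS-KD replicate 1 it was 0.99 with an adjusted p of 0.0451. For CTNS-KD-rescue against CTNS-KD it was 0.89 ± 0.28 (adjusted p = 0.232), and against NT2 it rose by 1.55 ± 0.27 (adjusted p = 0.000529), where 18.7% of all transcripts were called higher. The call against NT2 passed without each library in turn (adjusted p up to 0.0140) and did not pass with limma (adjusted p = 0.0944) or with NT as the control (1.46, adjusted p = 0.0783).

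Within each library the scaling cancels, so differences between groups in the balance of the chains can be read from counts alone. The counts are not corrected for transcript length, which is 9001 bases for Col6a3 against 4100 for Col6a1 and 4653 for Col6a2. A share of counts is therefore not a share of transcripts. The intervals are exact 95% binomial (Clopper-Pearson) ones and, as the reads carry no stated molecular identifiers, cover counting error only. Col6a1 made up 66.2% (57.3% to 74.2%) and 75.3% (67.5% to 82.1%) of the pair's counts in the Cysteamine libraries. It made up 72.7% (64.5% to 79.9%) and 75.9% (66.9% to 83.5%) in CTNS-KD-rescue, and 74.7% (63.6% to 83.8%) and 80.6% (69.1% to 89.2%) in CTNS-KD. In NT2 it made up 64.3% (59.3% to 69.0%) and 70.8% (65.7% to 75.6%). Most of these intervals overlap: the mean share was 77.6% ± 4.18 in CTNS-KD and 67.6% ± 4.63 in NT2 (SD, n = 2 each). The Col6a3 share of all type VI counts differed more. It was 19.8% (13.9% to 26.7%) and 26.6% (20.6% to 33.3%) in Cysteamine and 34.7% (28.4% to 41.5%) and 30.4% (23.4% to 38.2%) in CTNS-KD-rescue. In CTNS-KD it was 31.3% (23.0% to 40.6%) and 42.2% (33.1% to 51.8%), and in NT2 12.7% (9.76% to 16.1%) and 12.04% (8.95% to 15.7%). Every knockdown and rescue library lay above both NT2 libraries, with intervals that do not meet theirs; of the Cysteamine libraries, the interval of replicate 1 overlapped those of NT2. As the share contains the pair that was chosen for being low in knockdown, it is a description.

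**Figure D2:**
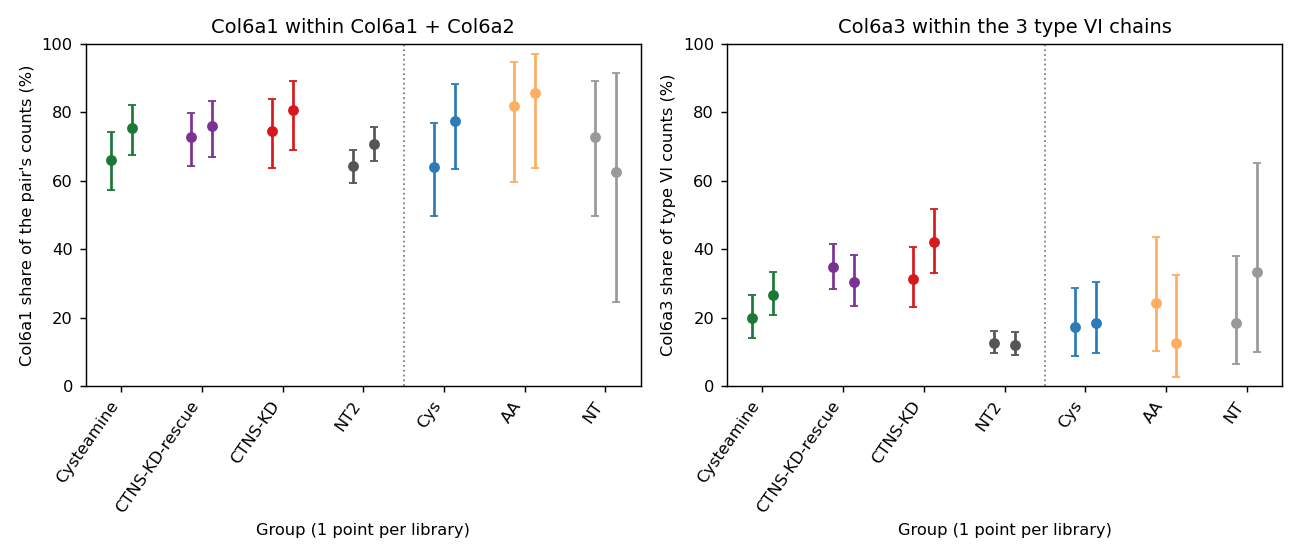
Left, Col6a1 as a percent of Col6a1 plus Col6a2 counts; right, Col6a3 as a percent of the counts of all 3 listed type VI chains, 1 point per library with its exact 95% binomial interval. The Col6a3 share is 12.04% and 12.7% in the NT2 libraries and 30.4% to 42.2% in the CTNS-KD and CTNS-KD-rescue libraries.

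Per kilobase of transcript Col6a1 was above Col6a2 in every group. Col6a1 averaged 115.6 CPM per kb in Cysteamine, 245 in CTNS-KD-rescue, 114 in CTNS-KD and 262 in NT2, and 184 in Cys, 246 in AA and 130 in NT. Col6a2 averaged 42.4 CPM per kb in Cysteamine, 74.6 in CTNS-KD-rescue, 28.9 in CTNS-KD and 111 in NT2, and 63.3 in Cys, 43.4 in AA and 54.7 in NT. Col6a3 averaged 22.6 CPM per kb in Cysteamine, 72.7 in CTNS-KD-rescue, 39.9 in CTNS-KD and 24.9 in NT2, and 25.4 in Cys, 33.8 in AA and 31.7 in NT. Col6a3 was below Col6a2 in all groups except CTNS-KD, and nearly level with it in the rescue. By level, the Col6a1 groups ran NT2, AA, CTNS-KD-rescue, Cys, NT, Cysteamine and CTNS-KD; NT2, AA and rescue overlapped as neighbours, as did Cys and NT, and Cysteamine and CTNS-KD. The Col6a2 groups ran NT2, CTNS-KD-rescue, Cys, NT, AA, Cysteamine and CTNS-KD; the 4 groups from Cys to Cysteamine overlapped as neighbours, and the other neighbours did not. For Col6a3 the rescue stood above CTNS-KD, and all groups below it overlapped as neighbours. Levels of the first experiment rest on few reads, and NT and NT2 differ, so the order across experiments is a description.

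In the starvation experiment, which did not enter the choice, neither chain passed the test with NT as the control. Col6a1 had 561 and 951 CPM in Cys and 1225 and 791 CPM in AA, against 573 and 490 CPM in NT, from 34 and 38, 18 and 18, and 16 and 5 counts. One Cys library was level with NT and the other above it, and both AA libraries were above both NT libraries. Col6a2 had 314 and 275 CPM in Cys and 272 and 132 CPM in AA, against 215 and 294 CPM in NT, from 19 and 11, 4 and 3, and 6 and 3 counts. Here every pair of groups overlapped except Cys and AA, where both Cys libraries were above both AA libraries. For Cys against NT the log2 fold change was 0.41 ± 0.37 (SE; 95% interval −0.37 to 1.19; adjusted p = 0.627) for Col6a1 and 0.33 ± 0.48 (−0.68 to 1.34; adjusted p = 0.835) for Col6a2. For AA against NT it was 0.82 ± 0.40 (−0.03 to 1.67; adjusted p = 0.615) and −0.33 ± 0.63 (−1.67 to 0.997; adjusted p = 0.945). For Cys against AA it was −0.41 ± 0.32 (−1.09 to 0.27; adjusted p = 0.449) and 0.66 ± 0.51 (−0.42 to 1.74; adjusted p = 0.476). Changes anywhere within those intervals remain compatible with these counts. The background was equally sparse: edgeR called 0 of 1399 transcripts (0%) for each starvation against NT, while 230 had an unadjusted p under 0.05 for Cys and 109 for AA. DESeq2 called 67 for Cys, where it gave no adjusted p to 705 transcripts, and 0 for AA, and limma called 5 and 14. For AA against NT, 16.3% of transcripts had both libraries above both; for Cys against AA, 15% were called and 25.7% had both libraries above both. With NT2 as the control the values of Cys turned to −0.56 for Col6a1 and −0.79 for Col6a2 (adjusted p = 0.112 and 0.0504) and those of AA to −0.14 and −1.45, where Col6a2 passed (adjusted p = 0.723 and 0.0146). Scaled by total counts, Cys against AA gave 0.61 for Col6a1 (adjusted p = 0.230) and 1.70 for Col6a2, which then passed (adjusted p = 0.0249). Without AA replicate 2 the Col6a2 change in AA against NT was 0.20. Col6a3, at 11 and 11 counts in Cys, 7 and 3 in AA and 5 and 4 in NT, overlapped between all 3 groups.

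The cysteamine effect on Col6a1 differed from the cysteine starvation effect by −1.59 ± 0.41 on the log2 scale (SE; 95% interval −2.45 to −0.72; adjusted p = 0.0359, edgeR), being −1.17 against NT2 for Cysteamine and 0.41 against NT for Cys. For Col6a2 the difference was −1.72 ± 0.50 (−2.79 to −0.66; adjusted p = 0.0502), from −1.40 and 0.33, and for Col6a3 −0.01 ± 0.69 (adjusted p = 0.996). The Col6a2 difference passed with the replicate block (−1.75, adjusted p = 0.0324) and with total counts (−2.56, adjusted p = 0.00828). Total counts also moved the median of all transcripts to −0.74, from 0.09. The Col6a1 difference did not pass with limma, with a mean count of at least 20 or without transcripts high in NT (defined in the processing section). Of all transcripts, 2.36% were called lower in this test. Its cysteamine side is measured against NT2, which the choice of the pair used, so the test is not independent of that choice; with NT as the control the cysteamine effect on Col6a1 was −0.21. The Col6a1 difference passed in 1 of 8 fits that left out a library, the one without Cys replicate 1 (adjusted p = 0.0396), and ran from −1.97 to −1.21 over them with an adjusted p of up to 0.118.

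Other collagens give the pair a context: 8 of 16 other fibroblast collagen genes were listed. With cysteamine 2 of the 8 fell, none rose and the median log2 fold change was −0.66, against 0.13 over all transcripts. Of all transcripts, 5% were called lower there. Col1a2, the second chain of type I collagen, fell by 1.94 on the log2 scale (SE 0.33, adjusted p = 0.00218), and Col3a1, the chain of type III collagen, fell by 0.84 (SE 0.25, adjusted p = 0.0444). Col5a1 and Col5a2, chains of the type V collagen that limits fibril width, had log2 fold changes of −0.52 (adjusted p = 0.0946) and −0.65 (adjusted p = 0.121). In CTNS-KD against NT2, 6 of the 8 fell and none rose, with a median of −1.18 against 0.09 over all transcripts. Of all transcripts, 13.2% were called lower there. Col5a2 fell by 2.49 (SE 0.28, adjusted p = 2.74e-05), Col1a2 fell by 2.84 (SE 0.35, adjusted p = 5.31e-05), Col3a1 fell by 2.18 (SE 0.28, adjusted p = 7.47e-05) and Col5a1 fell by 0.88 (SE 0.20, adjusted p = 0.00501). The values of the pair in this contrast, −1.20 and −1.91, lay within the range of these 8. In CTNS-KD-rescue against CTNS-KD 1 of the 8 rose, Col1a2 by 1.63 (SE 0.34, adjusted p = 0.0422), and the median was 0.59 against 0.01 over all transcripts. Col1a1, Col3a1 and Col4a2 had 1.19, 0.92 and 0.66 there, with adjusted p of 0.228, 0.237 and 0.324. Against NT2, 4 of the 8 fell in the rescue and none rose, where 12.9% of all transcripts were called lower. Per kilobase, the type I chains were above type VI in NT2: Col1a1 averaged 1289.6 CPM per kb there, Col1a2 1126 and the type III chain Col3a1 362.

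Counted within the libraries, the pair's share of collagen counts was slightly higher in the knockdown than in NT2, with overlapping intervals. Col6a1 plus Col6a2 made up 5.01% and 4.75% of the counts of all 11 listed collagen genes in Cysteamine, 8.11% and 8.78% in CTNS-KD-rescue and 7.49% and 7.51% in CTNS-KD, against 6.001% and 7.05% in NT2. The knockdown libraries were above and the Cysteamine libraries below both NT2 libraries. The mean share was 7.50% ± 0.0163 in CTNS-KD and 6.52% ± 0.738 in NT2, and 4.88% ± 0.184 in Cysteamine (SD, n = 2 each). The SD in CTNS-KD, from 79 and 67 counts of the pair, is smaller than the counting error of either library. Set against the fibrillar Col1a1, Col1a2 and Col3a1 alone, the difference between CTNS-KD and NT2 was larger, 3.81 percentage points where it was 0.976, and that between rescue and CTNS-KD was −0.803 where it was 0.9497. On that basis the Cysteamine libraries, at 8.51% and 7.98%, overlapped the NT2 libraries, at 8.47% and 10.03%, with a mean difference of −1.003 percentage points where it was −1.64.

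**Figure D3:**
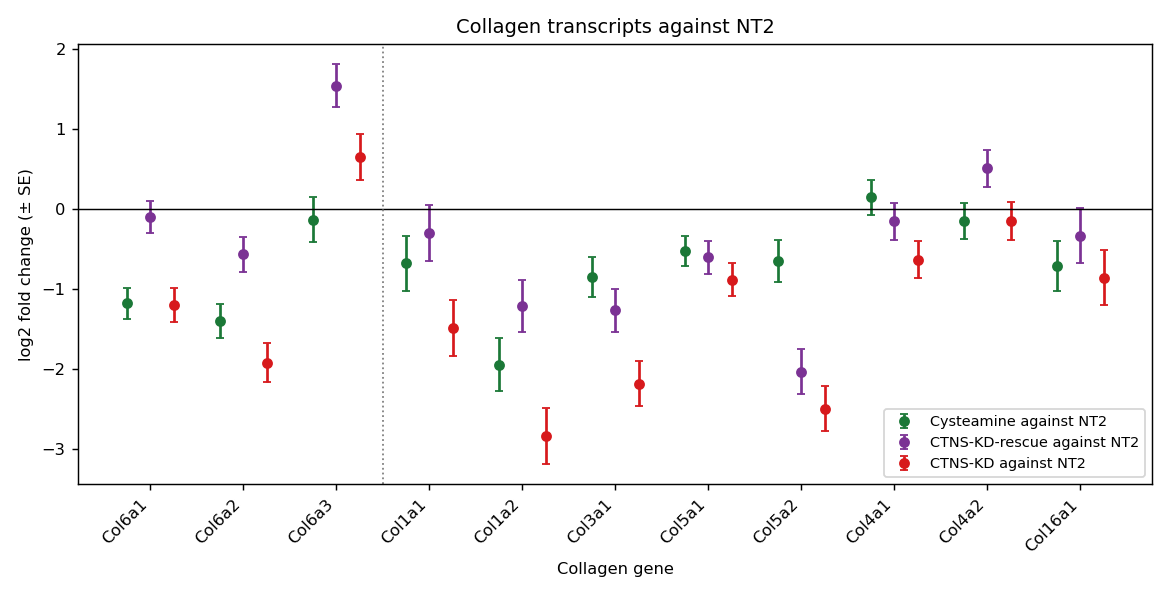
Log2 fold change (point) and its standard error (bar) of the 11 listed collagen genes for Cysteamine, CTNS-KD-rescue and CTNS-KD, each against the same NT2 libraries; type VI chains are left of the dotted line. Col1a2, Col5a2 and Col3a1 reach −2.84, −2.49 and −2.18 in CTNS-KD, below Col6a1 at −1.20 and Col6a2 at −1.91, while Col6a3 is above 0 in CTNS-KD and in the rescue.

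Of 22 genes for receptors, ligands and neighbours of type VI collagen in the matrix, 6 were listed: Fn1, Fbn1, Hspg2, Nid1, Col4a1 and Col4a2. The other 16, all receptors included, were not analysed here. With cysteamine, where 10.5% of all transcripts were called, 1 of the 6 rose and none fell, with a median of −0.31. It was Nid1, which links laminin to type IV collagen in basement membranes, at 1.49 ± 0.17 (SE, adjusted p = 0.000124). Fn1 (fibronectin), Fbn1 (fibrillin) and Hspg2 (perlecan) had −0.84, −0.51 and −0.47 without passing (adjusted p = 0.128, 0.205 and 0.278). In CTNS-KD, where 13.2% of all transcripts were called lower, 3 of the 6 fell and none rose, with a median of −0.59. Nid1 fell by 1.21 (SE 0.23, adjusted p = 0.00124), Fn1 by 1.63 (SE 0.35, adjusted p = 0.00301) and Col4a1, a basement membrane collagen counted in both lists, by 0.63 (SE 0.23, adjusted p = 0.0491). Nid1 thus rose with cysteamine and fell in the knockdown, while Col6a1 and Col6a2 were low in both. In the rescue against CTNS-KD none of the 6 passed, with a median of 0.43 (Col4a2 0.66, Col4a1 0.48, Hspg2 0.42 and Fn1 0.44; adjusted p = 0.324, 0.448, 0.574 and 0.623).

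Of 33 genes for collagen folding, export and crosslinking 13 were listed. With cysteamine 4 of them fell and none rose, with a median of −0.64: Lox, the lysyl oxidase that crosslinks collagen, by 0.82 (SE 0.16, adjusted p = 0.00374), Calr, an endoplasmic reticulum chaperone, by 1.18 (SE 0.25, adjusted p = 0.00706), Hspa5, the chaperone BiP, by 1.16 (SE 0.28, adjusted p = 0.0150), and Hsp90b1, the chaperone GRP94, by 0.95 (SE 0.26, adjusted p = 0.0329). The last 3 serve secreted proteins in general. Of all transcripts, 5% were called lower with cysteamine. In CTNS-KD, where 30.8% of all transcripts were called and 13.2% called lower, 6 of the 13 fell and 1 rose, with a median of −0.58. Lox fell by 2.83 (SE 0.21, adjusted p = 7.10e-07), Pcolce, an enhancer of procollagen cleavage, by 1.48 (SE 0.28, adjusted p = 0.00119), and Serpinh1, the collagen chaperone HSP47, by 0.98 (SE 0.25, adjusted p = 0.00766). P4ha1, a catalytic subunit of prolyl 4-hydroxylase, rose by 1.31 (SE 0.33, adjusted p = 0.00834). Hspa5 and Hsp90b1 had 0.30 and 0.14 in the knockdown (adjusted p = 0.436 and 0.709). In the rescue against CTNS-KD none of the 13 passed, with a median of 0.09 (−0.06 when scaled by total counts). Pcolce had 1.04, Fkbp10 0.87 and Lox 0.62 (adjusted p = 0.232, 0.356 and 0.451), and Hspa5 had −0.63 (adjusted p = 0.417).

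TGF-beta is a known inducer of fibroblast collagen genes, and 9 of 22 of its response genes were listed. With cysteamine, where 10.5% of all transcripts were called, 2 of the 9 rose and none fell, with a median of −0.20. Among them Ltbp1, which binds latent TGF-beta, rose by 1.33 (SE 0.29, adjusted p = 0.00765). Timp3 and Postn had −0.75 and −1.44 (adjusted p = 0.0503 and 0.0961). In CTNS-KD, where 13.2% of all transcripts were called lower, 4 of the 9 fell and none rose, with a median of −0.92. Thbs1, the matrix protein thrombospondin, fell by 2.43 (SE 0.23, adjusted p = 5.74e-06), Timp3, a metalloproteinase inhibitor, by 1.77 (SE 0.25, adjusted p = 0.000141), Acta2, smooth muscle actin, by 0.92 (SE 0.20, adjusted p = 0.00294) and Tagln, an actin-binding protein, by 1.35 (SE 0.31, adjusted p = 0.00501). In the rescue against CTNS-KD 3 rose and none fell, with a median of 0.78: Thbs1 by 1.69 (SE 0.27, adjusted p = 0.00806), Acta2 by 1.23 (SE 0.21, adjusted p = 0.00960) and Postn, the matrix protein periostin, by 3.01 (SE 0.58, adjusted p = 0.0316). The Postn value rests on 26 counts over both rescue libraries and 4 over both CTNS-KD libraries, close to the smallest count listed. It passed without CTNS-KD-rescue replicate 1 (adjusted p = 0.0216) and not without CTNS-KD replicate 1 (0.261), CTNS-KD replicate 2 (0.319) or CTNS-KD-rescue replicate 2 (0.297). Postn also fell short of the threshold in CTNS-KD, at −1.47 (adjusted p = 0.0862).

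Over these lists, which hold 34 distinct measured genes, 9 genes (26.5%) were called with cysteamine, 19 (55.9%) in CTNS-KD and 4 (11.8%) in rescue against CTNS-KD. Across all 1399 transcripts 10.5%, 30.8% and 0.643% were called in these comparisons, with 77 higher and 70 lower for cysteamine (32 and 61 when scaled by total counts). Of the 9 cysteamine calls, 3 passed without NT2 replicate 1, 2 without Cysteamine replicate 1, 2 without NT2 replicate 2 and 1 without Cysteamine replicate 2. Of the 19 knockdown calls, 11 passed without NT2 replicate 1, 13 without CTNS-KD replicate 1, 16 without NT2 replicate 2 and 12 without CTNS-KD replicate 2. Of the 4 rescue calls, 0 passed without CTNS-KD replicate 1, 1 without CTNS-KD-rescue replicate 1, 0 without CTNS-KD replicate 2 and 2 without CTNS-KD-rescue replicate 2. With limma 0, 10 and 0 of them passed, and with NT as the control 2 of the cysteamine and 6 of the knockdown calls.

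In cysteine starvation against NT no gene of these lists passed, though the values of all 8 other collagens and of all 6 matrix partners were above 0 (7 of 8 and 5 of 6 without the transcripts high in NT), with medians of 0.68 and 0.77 against 0.01 over all transcripts. The smallest p-values were those of Nid1 at 1.72 ± 0.41 (SE, adjusted p = 0.0753), Ccn1, a secreted matricellular protein, at 1.60 ± 0.43 (adjusted p = 0.0954), Acta2 at 1.51 ± 0.42 and Lox at 1.05 ± 0.29 (adjusted p = 0.0981 for each). Scaled by total counts these medians were 1.33 and 1.43, against 0.70 over all transcripts. Col6a1 at 0.41 and Col6a2 at 0.33 were below both list medians. In AA against NT none of the genes passed either, and the other collagens had a median of 0.06.

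By Pearson correlation of log2 CPM over the 8 libraries of the second experiment, the transcripts most alike in pattern to each chain were found among 1120 with a mean count of at least 20. The points share their libraries and scaling, and groups of 2 dominate them, so r is a description. For Col6a1 the first 5 were Hspg2 (r = 0.973), Yars, a tyrosyl-tRNA synthetase (0.942), Rnf213, a large ubiquitin ligase (0.926), Lrp1, an endocytic receptor (0.925), and Plxna4, a semaphorin receptor (0.923). For Col6a2 the first 4 were Lrp1 (0.971), Col1a2 (0.960), Rrbp1, a ribosome-binding protein of the endoplasmic reticulum (0.947) and Slit3, a secreted guidance protein (0.935). Lrp1 was named for both chains. It had 603 and 605 CPM in Cysteamine, 967 and 830 CPM in CTNS-KD-rescue and 520 and 511 CPM in CTNS-KD, against 1247 and 1196 CPM in NT2. Its Cysteamine and CTNS-KD libraries were the lowest and its rescue libraries stood between them and NT2, as for Col6a2. The chains correlated with each other at r = 0.892, rank 11 for Col6a1 and rank 13 for Col6a2. Col6a3 stood at r = 0.344 with Col6a1 and −0.0099 with Col6a2, ranks 208 and 495.

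**Figure D4:**
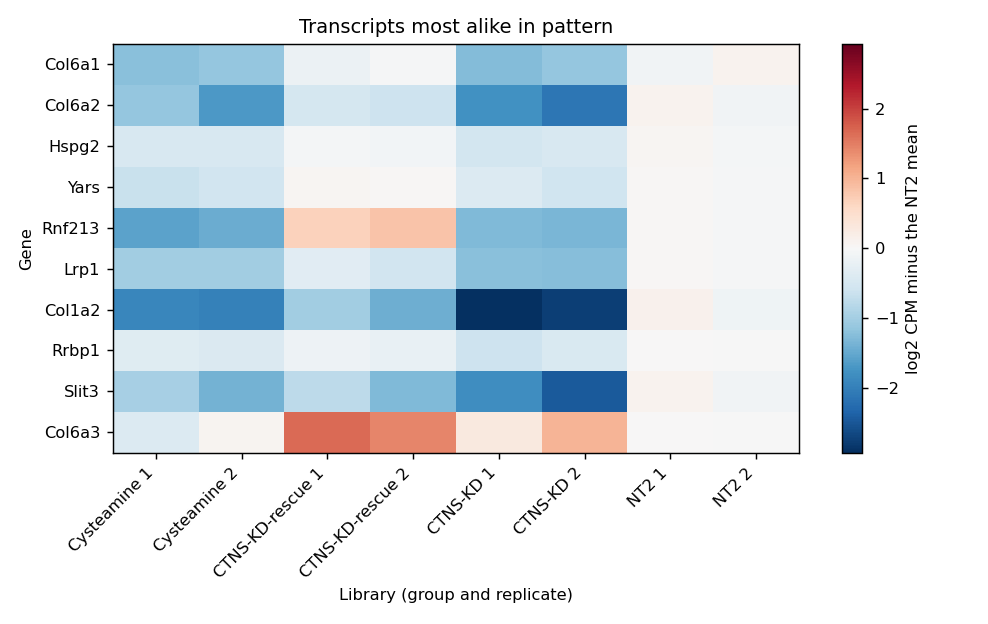
Log2 CPM minus the NT2 mean (colour) in the 8 libraries of the second experiment for Col6a1, Col6a2, the 4 transcripts most alike in pattern to each and Col6a3. In the Col6a1 row Cysteamine and CTNS-KD are between −1.27 and −1.12 and the rescue is at −0.16 and −0.03; in the Col6a2 row the rescue is at −0.51 and −0.62.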

How the data were processed

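Polyadenylated RNA of 14 MEF libraries was fragment-selected on a gel, tailed, ligated and amplified by PCR, per the labels' protocols. Named in the submitters' processing notes, without a role, were STAR 2.7.10a, Bowtie 1.2.3, cutadapt 2.8, bcl2fastq 2.20.0.422 and the build GRCm39. For the counter, strand setting, annotation and filters the entry is: not given in the sources used here. Although named as CPM, the tables deposited by the authors hold whole numbers with differing totals and were treated as raw counts; the tests and binomial intervals depend on that reading. All list the same 1399 transcripts with a smallest count of 1, so falls to 0 cannot be seen. Transcripts were named with GENCODE M21 (1385 named, 14 not, 1 transcript per gene), and its GRCm38 coordinates were not used to place reads. Without a stated strand setting, reads from antisense overlaps cannot be told apart.

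edgeR 4.0.16 (R 4.3.3) fitted 7 group means to all 14 libraries by quasi-likelihood after TMM scaling, with a two-sided test and Benjamini-Hochberg adjustment over 1399 transcripts at 0.05. Adjusted p-values without a tool beside them come from this edgeR test. limma 3.58.1 (log2 CPM, prior count 2), DESeq2 1.42.0 and the other alternatives of the closing section were also run. The script was tested on simulated counts. The members, the 5 gene lists and the tests were chosen with earlier results of these data known. Named genes were the members, the other listed type VI chain, up to 4 genes with the smallest p of each list for cysteamine, knockdown, rescue against knockdown and (over the lists) cysteine starvation, and the 5 transcripts most alike in pattern; Hspa5 and Hsp90b1 in the knockdown and Postn there were named beyond this rule after their values were seen. Some of these named genes are left out. "Transcripts high in NT" are 341 transcripts whose ratio of NT to NT2 counts was over 2 times the median ratio; no type VI chain was among them. Python 3.11.15 and scipy 1.17.1 gave the binomial intervals.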

Additional observations from a re-analysis of the deposited data

Results flagged for a closer look

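The effect of cysteamine on Col6a1 differed from that of cysteine starvation by −1.59 on the log2 scale in a test of the difference itself (adjusted p = 0.0359, edgeR). The effects were −1.17 for Cysteamine against NT2, lower in 2 of 2 libraries, and 0.41 for Cys against NT, where the libraries overlapped. They come from the sets called the second and the first experiment here, with different untreated controls. Treatment and set cannot be told apart, and the labels do not state the division. NT2 was also used in choosing Col6a1, so the test is not independent of that choice; with NT as the control the cysteamine effect was −0.21. The Col6a1 counts were 86 to 252 for Cysteamine and NT2, and 5 to 38 for Cys and NT.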

How the results depend on the processing

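Results were recomputed under the alternatives named here, where an alternative could give them a value. In the cysteamine comparison the Col6a1 value of −1.17 was −1.15 with limma (adjusted p = 0.304) and −0.21 with NT as control (0.727); the Col6a2 value was −1.32 (0.306) and −0.28 (0.741). Leaving out a library gave −1.28 to −1.07 for Col6a1 (adjusted p 0.0316 to 0.0705) and −1.68 to −1.13 for Col6a2 (0.00566 to 0.0498). With NT as control Col6a1 and Col6a2 had −0.23 and −0.80 in CTNS-KD, and 0.87 and 0.55 in CTNS-KD-rescue. Scaling by total counts gave Col6a1 −1.37 in CTNS-KD, 0.946 in rescue against CTNS-KD and −0.43 in rescue against NT2, where Col6a2 had −0.89. Without transcripts high in NT the rescue values against NT2 were 0.10 for Col6a1 and −0.37 for Col6a2.

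In the starvations, NT2 as control turned Cys to −0.56 for Col6a1 (adjusted p = 0.112) and −0.79 for Col6a2 (0.0504), and AA to −0.14 (0.723) and −1.45 (0.0146). Cys against AA scaled by total counts was 0.61 for Col6a1 (0.230) and 1.70 for Col6a2 (0.0249). Leaving out a library gave Col6a2 −0.84 to 0.20 in AA against NT. The Col6a1 difference between the cysteamine and Cys effects was −1.43 with a mean count of at least 20 (0.0516), −1.34 without transcripts high in NT (0.0627) and −1.60 with limma (0.0755). It ran from −1.97 to −1.21 without single libraries, that of Col6a2 from −2.01 to −1.42, and the Col6a2 value was −2.56 with total counts (0.00828); a fit of 1 experiment alone could not give it.

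Total counts moved the median of all transcripts to 0.70 for Cys and −0.31 for AA against NT, 1.09 for Cys against AA, −0.33 for rescue against NT2, −0.14 for rescue against CTNS-KD, −0.02 for cysteamine, −0.08 for CTNS-KD and −0.74 for the difference of effects. Calls higher and lower then numbered 199 and 259 for rescue against NT2 (261 and 180 with TMM), 474 and 74 for Cys against AA (36 and 174) and 31 and 147 for the difference (62 and 33).

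Replicate numbers are labels shared by 2 libraries per group, and the correlation of their deviations was 0.09 to 0.28 in the second experiment and −0.21 to 0.29 in the first. Nothing in the labels says what a number stands for, so whether it pairs libraries is not known and the fit without it was kept. With the replicate block the cysteamine values were −1.18 for Col6a1 and −1.39 for Col6a2, the Col6a2 difference of effects was −1.75 (0.0324), and 269 transcripts were called for cysteamine and 80 for Cys against NT. Crossing the numbers of AA, chosen after seeing the data, gave 12 calls for AA against NT.

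The number called for cysteamine, 147, was 93 with total counts, 327 without transcripts high in NT, 0 with limma, 375 in its own experiment, 356 with NT as control and 15 to 32 without single libraries. For CTNS-KD, 431 became 114 with limma, 203 with NT and 191 to 237 without single libraries. For rescue against CTNS-KD, 9 became 2 with total counts, 35 without transcripts high in NT, 19 with DESeq2, 1 with limma, 58 in its own experiment and 1 to 4 without single libraries. For rescue against NT2, 441 became 287 without transcripts high in NT, 145 with limma, 155 with NT and 257 to 287 without single libraries. For Cys against NT, 0 became 2 with DESeq2 size factors, 31 with total counts, 67 with DESeq2, 5 with limma, 248 with NT2 and 0 to 112 without single libraries. For AA against NT, 0 became 14 with limma, 459 with NT2 and 0 to 20 without single libraries. For Cys against AA, 210 became 548 with total counts, 117 with the count filter, 18 without transcripts high in NT, 87 in its own experiment and 18 to 193 without single libraries. Fewer libraries enter each of the last fits.

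With NT as control Lox, Calr, Hsp90b1 and Ltbp1 had 0.072, 0.31, 0.047 and −0.14 for cysteamine, and P4ha1 and Acta2 −1.14 and 0.72 for CTNS-KD. Col6a3 for cysteamine ran from −0.39 to 0.072 without single libraries. The Col6a1 share of the pair, Cysteamine minus NT2, ran from −1.41 to 7.78 percentage points, and the type VI share of collagen counts with the fibrillar denominator was −0.803 for rescue minus CTNS-KD and 3.81 for CTNS-KD minus NT2. Over all 14 libraries, centred by experiment, 1 of the 5 most alike transcripts was kept for each chain. Groups of 2 libraries, few counts in the first experiment and an unstated pairing of controls limit every value; the cause of these changes was not tested.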
